A study of Homo sapiens with 6 samples.

Results

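The genes described here are the regulators through which a cell senses its sterols and moves cholesterol between compartments, measured in the established human bladder cancer line T24 with and without oxidized low-density lipoprotein (ox-LDL). They were named by role: the transcription factor genes SREBF1 and SREBF2, their escort SCAP, the retention factors INSIG1 and INSIG2, the activating protease MBTPS1, the sterol carriers STARD4 and NPC1, and the ubiquitin ligase MYLIP. A probe set carrying the gene's symbol was found for 8 of the 9, with 1 probe set each, among 21448 probe sets that were no controls. MYLIP had no probe set with its symbol and was not analysed here. Both groups were T24 cells grown with 10% serum and then kept for 12 h without it. Vehicle cells (3 arrays) received vehicle and ox-LDL cells (3 arrays) received ox-LDL at 20 µg/mL, each for 24 h, and each sample was read on 1 array. The comparison asked which transcripts differed between the groups. Whether the 3 samples of each group came from separate cultures is not said in the labels, so p-values measure only how far these samples differ, and that spread may be technical.

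SREBP proteins are made as inactive precursors in the membrane of the endoplasmic reticulum, where SCAP binds them. When membrane cholesterol is low, SCAP carries the precursor in COPII-coated vesicles to the Golgi, where the site-1 protease encoded by MBTPS1 makes the first cut that frees the active factor. When sterols are plentiful, INSIG proteins hold SCAP back, and the nuclear factor's targets, which include INSIG1 and SREBF2 themselves, are transcribed less. Cholesterol that enters with lipoproteins is freed in lysosomes and leaves them through NPC1, while STARD4 is a soluble protein that shuttles sterol between membranes. An array reads transcript levels, so neither the place nor the cleavage of these proteins was measured.

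INSIG1 was 1.97-fold lower with ox-LDL, and STARD4 and NPC1 were each 1.38-fold lower. These 3 genes passed in limma (an adjusted p under 0.05, by Benjamini-Hochberg over all probe sets), and the other 5 did not. Of all probe sets, 3.29% passed as lower with ox-LDL and 3.48% as higher. SREBF2 had a log2 difference of -0.34 and SCAP one of 0.24 without passing. SREBF1, INSIG2 and MBTPS1 had log2 differences of -0.04, 0.13 and -0.23. The groups of SREBF2, SCAP and MBTPS1 did not overlap on the arrays. Of all probe sets, 17.7% were lower with no overlap and 19.1% higher. In RNA from whole cultures, fewer cells that express a gene and less RNA per cell cannot be told apart.

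The DNA just upstream of the start site is shown for the 3 genes that fell and for SREBF2, since these 4 had the most negative differences and SREBP proteins are known to bind promoters of sterol-regulated genes. Each line gives 250 bases before the start, from RefSeq on GRCh38.p14, written 5′ to 3′ along the gene. The array's own build is not given in the sources used here. Capitals mark matches on either strand to TCACNCCAC (a sterol regulatory element, SRE), CCAAT (the NF-Y box), GGGCGG (the Sp1 box) or CACGTG (an E-box).
INSIG1, chr7:155297628-155297877, plus strand: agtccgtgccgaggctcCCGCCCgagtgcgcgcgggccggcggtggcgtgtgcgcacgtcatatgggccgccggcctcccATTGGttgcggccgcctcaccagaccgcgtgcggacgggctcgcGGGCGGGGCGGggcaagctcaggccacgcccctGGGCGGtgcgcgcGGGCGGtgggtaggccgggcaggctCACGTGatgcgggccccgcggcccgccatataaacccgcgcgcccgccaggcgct
SREBF2, chr22:41832855-41833104, plus strand: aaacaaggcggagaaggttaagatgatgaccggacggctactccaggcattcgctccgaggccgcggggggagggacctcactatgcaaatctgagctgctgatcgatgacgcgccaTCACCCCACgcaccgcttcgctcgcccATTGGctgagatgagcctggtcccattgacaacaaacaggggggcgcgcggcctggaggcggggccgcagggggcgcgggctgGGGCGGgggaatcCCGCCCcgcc
STARD4, chr5:111512536-111512785, minus strand: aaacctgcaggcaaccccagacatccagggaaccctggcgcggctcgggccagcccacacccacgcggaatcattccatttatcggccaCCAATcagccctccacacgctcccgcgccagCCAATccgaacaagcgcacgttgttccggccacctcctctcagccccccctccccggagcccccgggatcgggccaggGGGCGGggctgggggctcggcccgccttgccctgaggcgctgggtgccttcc
NPC1, chr18:23586507-23586756, minus strand: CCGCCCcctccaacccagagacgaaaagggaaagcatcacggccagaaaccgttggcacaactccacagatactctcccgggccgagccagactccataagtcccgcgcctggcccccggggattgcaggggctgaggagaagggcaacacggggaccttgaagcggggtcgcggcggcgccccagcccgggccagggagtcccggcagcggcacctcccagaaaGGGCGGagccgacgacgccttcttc

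All 9 genes were found in the promoter table, in 10 windows of 300 bases (250 before the start and 50 after it), because INSIG2 has 2 starts. Among the 9, the SRE letters occurred in SREBF2, at -133 from the start, with a CCAAT box at -106 on the other strand. They occurred in 1.13% of all 35116 promoter windows and in 0 of 15 other cholesterol synthesis and sterol-regulated genes with a window. These exact letters thus missed every gene of that group that had a window. INSIG1 held the E-box letters at -55 and a CCAAT box at -170, and SCAP also held an E-box, at -58, against 7.26% of all windows. STARD4 had CCAAT boxes at -161 and -130. The CCAAT letters were present in 4 of the 9 genes (INSIG1, SREBF2, STARD4 and MYLIP) and in 34.6% of all windows. Sp1 boxes, which 45.0% of all windows hold, were in 8 of the 9, all but MBTPS1. They were also in 14 of the 15 other cholesterol synthesis and sterol-regulated genes, and in 9 of 11 genes of fatty acid synthesis and desaturation. The 250 bases before the start were 65.6% to 78.4% G or C in the 9 genes, and all windows were not measured for this. In INSIG1 the Sp1 boxes at -126 and -121 overlap, and in SREBF2 those at -10 and -5 do, the latter running past the printed end. AGGTCA, the half-site of nuclear receptors such as LXR, was in 0 of the 9 and in 13.8% of all windows. These matches describe letters in a short window and do not show binding.

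The arrays had median log2 values of 7.11 to 7.18. The third vehicle array stood apart, with correlations of 0.979 to 0.988 with the others across probe sets, against 0.992 to 0.997 among the remaining 5. Its GC-rich background probe sets had a mean log2 value of 7.82, where the other 5 arrays had 7.27 to 7.37. A free-text label names control siRNA and siRNA to G9a for the same arrays, against the titles, treatment and source fields followed here. EHMT2, which encodes G9a, was higher with ox-LDL by 0.37 log2 units without passing in limma (adjusted p = 0.125, SE 0.12). Its ox-LDL arrays all lay above its vehicle arrays, as was so for 19.1% of all probe sets. Of 13 urothelial and epithelial markers, 10 lay above the 95th percentile of the negative control probe sets (5.21) in each group, with the keratins KRT7, KRT8 and KRT18 at vehicle means of 11.97, 12.10 and 11.89, while CDH1, UPK1B and UPK3A lay at or below it. The leukocyte genes PTPRC and MS4A1 and the endothelial genes KDR and TEK also lay at or below it. Markers above it numbered 3 of 5 for leukocytes, 3 of 5 for endothelium and 6 of 6 for fibroblasts and muscle, in each group. The summed log2 values of the epithelial list ran from 96.2 to 98.6 on the vehicle arrays and from 96.6 to 98.1 on the ox-LDL arrays. The sums were 29.1 to 30.3 and 28.6 to 29.0 for leukocytes, 26.6 to 28.7 and 26.6 to 26.9 for endothelium, and 40.2 to 42.8 and 39.4 to 40.3 for fibroblasts and muscle. In each of these 4 lists 0 genes passed in limma and 1 had an unadjusted p under 0.05, where 26.1% of all probe sets had such a p. With array weights 1 epithelial and 1 endothelial gene passed, and 1 epithelial gene did with an intensity trend, among the brighter probe sets or without the third vehicle array. The part of these markers in the results was not tested.

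INSIG1, the retention factor whose gene is itself a target of SREBP, showed the largest change of the 8. It read log2 values of 9.46, 9.49 and 9.60 with vehicle and of 8.52, 8.57 and 8.52 with ox-LDL. Every ox-LDL array thus lay below every vehicle array, by far more than arrays of a group differed from each other. The mean went from 9.52 ± 0.07 to 8.54 ± 0.03 (SD, n = 3 each). The log2 difference was -0.98 (95% confidence interval -1.15 to -0.81, SE 0.07, adjusted p = 0.00126), and 0.438% of all probe sets had a more negative one. INSIG1 was the member that met the selection stated in the study's design, p of 0.001 or less and a change of at least 1.5-fold, which took 2.31% of all probe sets. It passed with each array left out in turn, with adjusted p-values from 0.00147 to 0.0164.

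INSIG2, the second retention factor, is known from other cells as the form that does not depend on SREBP. Its log2 values were 8.49, 8.58 and 7.64 with vehicle and 8.33, 8.38 and 8.38 with ox-LDL. The third vehicle array was far below the rest, and the other vehicle arrays were above all ox-LDL arrays. The log2 difference of 0.13 (95% confidence interval -0.43 to 0.69, SE 0.24, adjusted p = 0.754) turned to -0.17 (adjusted p = 0.123, SE 0.06) without that array, so the data gave no settled direction for INSIG2.

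On these arrays the change was more negative for INSIG1 than for INSIG2. INSIG1 minus INSIG2, taken within each array, was 0.97, 0.91 and 1.96 for vehicle and 0.20, 0.19 and 0.13 for ox-LDL. Only the change of this quantity between groups can be read, since levels of different probe sets are not on 1 scale. The change was -1.11 with all arrays and -0.77 without the third vehicle array. The groups did not overlap, and the two-sided exact permutation test gave p = 0.1, the smallest that 3 arrays against 3 allow.

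**Figure D1:**
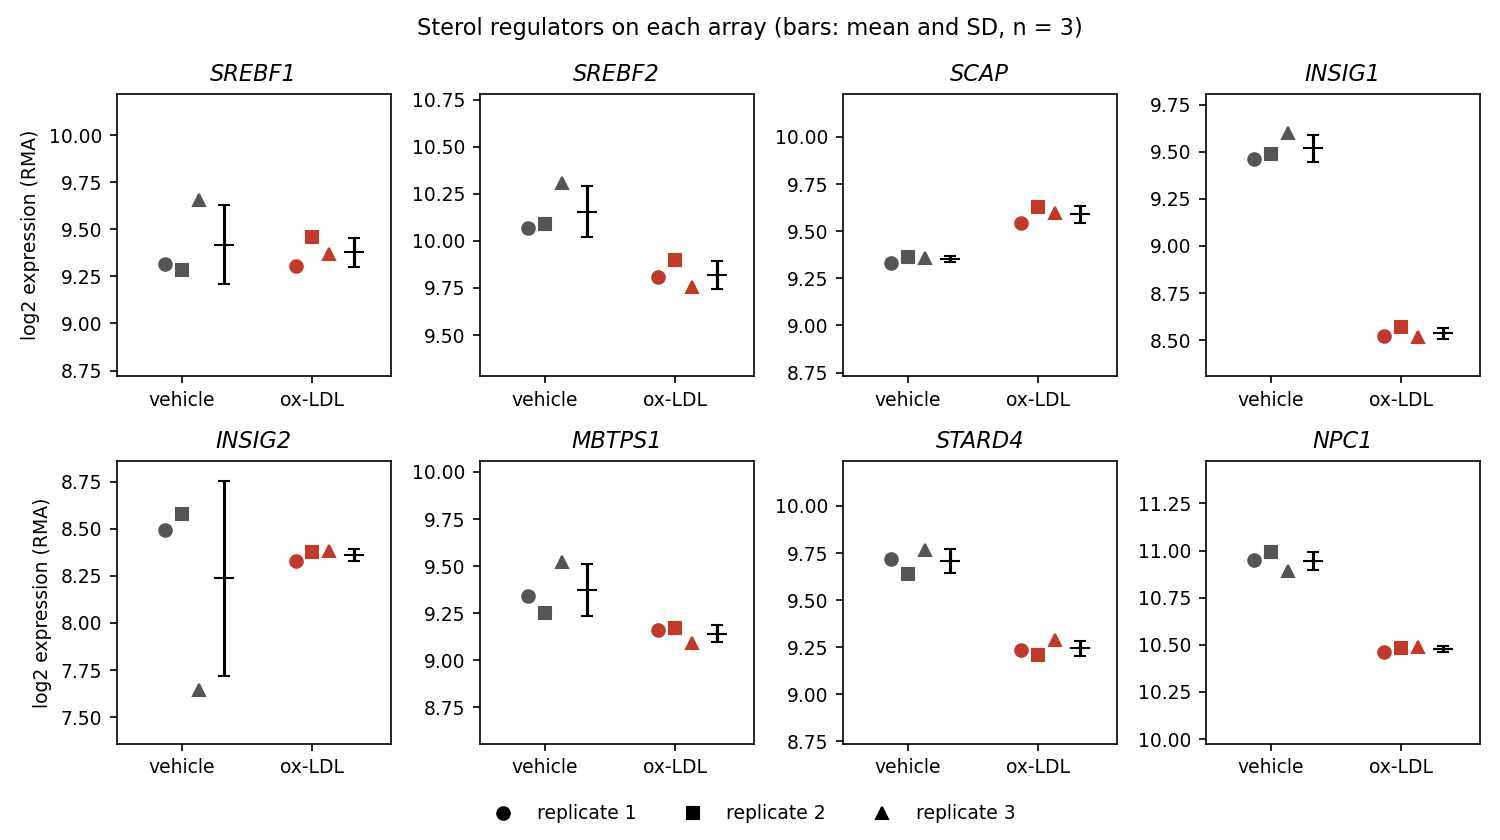
Log2 expression of the 8 measured genes on each array, 1 panel per gene and 1.5 log2 units per panel, with vehicle in grey, ox-LDL in red, replicate numbers as symbols and mean with SD beside them. INSIG1, STARD4 and NPC1 separate downward, and the third vehicle array (triangle) lies apart for INSIG2 (7.64) and SREBF1 (9.66).

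SREBF2 encodes SREBP2, the form that mainly drives cholesterol synthesis. It read 10.07, 10.09 and 10.31 with vehicle and 9.81, 9.90 and 9.75 with ox-LDL. All 3 ox-LDL arrays were below all vehicle arrays, the third of which was the highest. The mean went from 10.15 ± 0.13 to 9.82 ± 0.07 (SD, n = 3 each), a log2 difference of -0.34 (95% confidence interval -0.56 to -0.12, SE 0.09) that did not pass (adjusted p = 0.0804). Without the third vehicle array it was -0.26 (adjusted p = 0.0586). SREBF2 passed with an intensity trend and robust fit (adjusted p = 0.0210), with array weights (0.0284) and among the brighter probe sets (0.0293), and the adjusted p ran up to 0.245 over the other alternatives. The settings in which SREBF2 passed called 2649, 3962 and 2608 probe sets in that order, where the main fit called 1451.

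SREBF1 encodes SREBP1, whose forms drive fatty acid synthesis as well, and the probe set does not tell its isoforms apart here. It read 9.31, 9.28 and 9.66 with vehicle and 9.30, 9.46 and 9.37 with ox-LDL, so the groups overlapped. The log2 difference was -0.04 (95% confidence interval -0.32 to 0.24, SE 0.12, adjusted p = 0.843), and 0.079 without the third vehicle array. SREBF2 minus SREBF1 within each array was 0.75, 0.80 and 0.65 for vehicle and 0.50, 0.44 and 0.39 for ox-LDL. This within-array difference changed by -0.30, with no overlap between groups (two-sided exact permutation test, p = 0.1, again the smallest possible), and by -0.34 without the third vehicle array. The change was thus more negative for SREBF2 than for SREBF1 on these arrays.

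**Figure D2:**
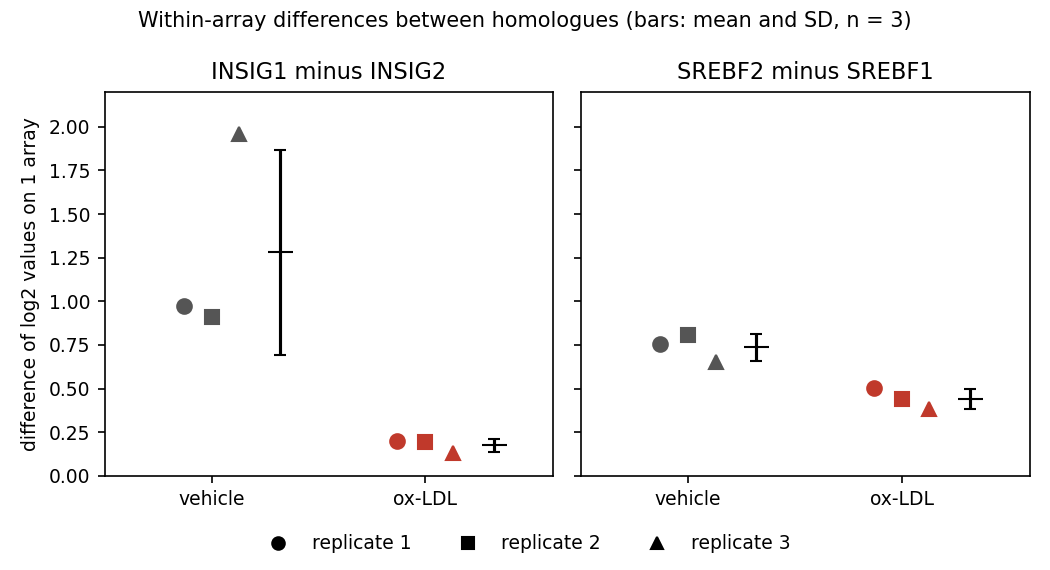
Log2 value of INSIG1 minus that of INSIG2 (left) and of SREBF2 minus that of SREBF1 (right) on each array, with mean and SD (n = 3) beside the points. Ox-LDL arrays lie below vehicle arrays in each panel, and the third vehicle array is the high point for the INSIG genes (1.96).

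SCAP, the cholesterol-sensing escort, was the member with the highest difference. It read 9.33, 9.36 and 9.36 with vehicle and 9.54, 9.63 and 9.60 with ox-LDL. Its ox-LDL arrays were all above its vehicle arrays, whose spread was small (SD 0.02). The log2 difference of 0.24 (95% confidence interval 0.08 to 0.40, SE 0.07) did not pass (adjusted p = 0.0863). It passed with array weights (adjusted p = 0.0262), with an intensity trend (0.0287), with an unmoderated t statistic (0.0322) and among the brighter probe sets (0.0206), and the other alternatives gave up to 0.276. The settings in which SCAP passed called 3962, 2649, 1087 and 2608 probe sets in that order, against 1451 in the main fit. MBTPS1, the site-1 protease that also cuts stress-sensing factors such as ATF6, read 9.34, 9.25 and 9.52 with vehicle and 9.16, 9.17 and 9.09 with ox-LDL. Its groups did not overlap either, but the log2 difference of -0.23 (95% confidence interval -0.45 to -0.02, SE 0.09, adjusted p = 0.169) did not pass and was -0.16 without the third vehicle array.

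STARD4, the sterol shuttle and a known SREBP target, read 9.72, 9.64 and 9.77 with vehicle and 9.23, 9.21 and 9.29 with ox-LDL. The ox-LDL arrays were all lower. The mean went from 9.71 ± 0.06 to 9.24 ± 0.04 (SD, n = 3 each), a log2 difference of -0.46 (95% confidence interval -0.64 to -0.29, SE 0.07, adjusted p = 0.0145). NPC1, the lysosomal cholesterol exporter, read 10.95, 10.99 and 10.89 with vehicle and 10.46, 10.48 and 10.49 with ox-LDL. Here too no array of 1 group reached the other group. The mean went from 10.94 ± 0.05 to 10.48 ± 0.02 (SD, n = 3 each), a log2 difference of -0.47 (95% confidence interval -0.63 to -0.30, SE 0.07, adjusted p = 0.0120). Both calls held without any 1 vehicle array. Without ox-LDL replicate 1, 2 or 3 the adjusted p became 0.0854, 0.0925 and 0.0717 for STARD4 and 0.0767, 0.0764 and 0.0711 for NPC1, while with any 1 array left out the differences stayed between -0.50 and -0.44.

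Over the 8 genes, 6 log2 differences were negative, and the median was -0.28 against -0.03 over all probe sets. The groups did not overlap for 5 genes that were lower and for SCAP, which was higher, where 17.7% and 19.1% of all probe sets were so arranged. Without the third vehicle array the same 3 genes passed, with 5.69% of probe sets passing as lower, and the median was -0.22. Of the markers of other cell types, those of fibroblasts and muscle had a median log2 difference of -0.26, with 6 of 6 negative and 3 of 6 lower with no overlap between groups, and the median was -0.12 without that array. Those of leukocytes had a median of -0.12, with 5 of 5 negative, and of -0.06 without it. Those of endothelium had a median of -0.10, with 4 of 5 negative, and of 0.03 without it. The part of these markers in the median of the 8 genes was not tested. Leaving out ox-LDL replicate 1, 2 or 3 left INSIG1, with 1.44%, 1.42% and 1.56% of all probe sets passing. All 8 lay above the negative controls in each group.

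**Figure D3:**
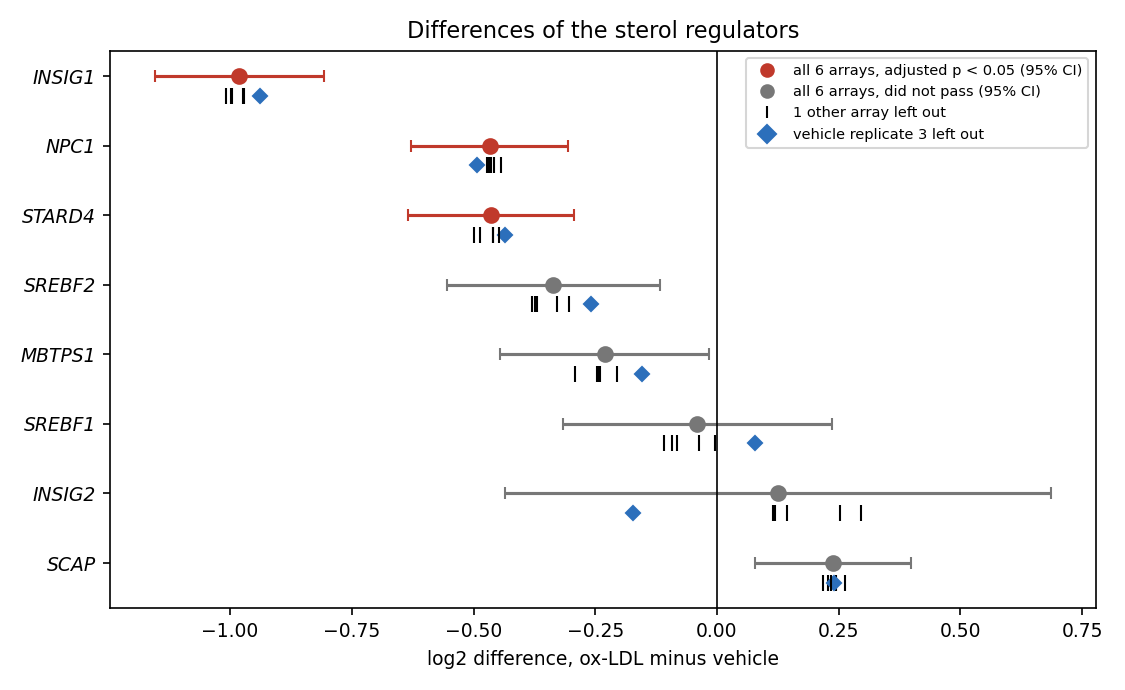
Log2 difference, ox-LDL minus vehicle, of the 8 genes with 95% confidence intervals, in red where the adjusted p was under 0.05. Ticks below each show the difference with 1 array left out and the diamond that without vehicle replicate 3, which turns the sign of INSIG2 (-0.17) and SREBF1 (0.079).

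The profiles most like those of the 3 fallen genes were sought among all named genes, as the smallest Euclidean distance between the 6 log2 values of a gene after centring on their mean. Nearest to INSIG1 were LIF, a cytokine of the interleukin 6 family (distance 0.09), DHCR7, the enzyme of the last step to cholesterol (0.11), and G0S2, an inhibitor of the lipase that empties lipid droplets (0.11). Their log2 differences were -0.98, -0.94 and -0.96. Nearest to STARD4 were the metallothionein MT1G, C1QTNF1 and LHFPL2 (distances 0.07, 0.07 and 0.07), and nearest to NPC1 were the metallothionein MT1B, the stress response factor ATF4 and the kinase CDK17 (0.05, 0.06 and 0.06). Metallothioneins are near-identical in sequence, so the values of MT1G and MT1B are uncertain. With 2 groups of 3 arrays, such closeness can reflect little more than a like difference between groups.

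The targets of the SREBP2 type, meaning sterol synthesis enzymes and TMEM97, had moved furthest among the surrounding lists. Of 17 measured, 14 fell and 3 did not pass, where 3.29% of all probe sets passed as lower. The median log2 difference was -0.63. The early synthase gene HMGCS1 fell by 1.37, the epoxidase SQLE by 0.97, the oxidase MSMO1 by 0.86, DHCR7 by 0.94 (SE 0.09), the sterol reductase HSD17B7 by 0.86 (SE 0.08), the decarboxylase MVD by 0.75 (SE 0.14) and the demethylase CYP51A1 by 0.73 (SE 0.10) on the log2 scale. The others that fell were FDPS, LSS, IDI1, SC5D, MVK, ACAT2 and NSDHL, by 0.63 down to 0.40. EBP and TMEM97 did not pass at -0.29 each (TMEM97 did at -0.30 without vehicle replicate 3, adjusted p = 0.0308), and PMVK, a kinase of the same pathway, was at 0.35 (adjusted p = 0.0946). INSIG1 thus lay among the larger of these falls, and STARD4 and NPC1 among the smaller. The count became 15 without vehicle replicate 3, 10 without vehicle replicate 1 and 7 without vehicle replicate 2. It was 6 whichever ox-LDL array was left out. The probe sets of the whole table that passed as lower changed as well, from 705 with all arrays. They numbered 1220, 400 and 386 without vehicle replicate 3, 1 or 2, and 212, 212 and 229 without ox-LDL replicate 1, 2 or 3. The 6 genes that passed in all these fits were HMGCS1, SQLE, MSMO1, DHCR7, HSD17B7 and FDPS.

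Targets of the SREBP1 type, genes of fatty acid synthesis and desaturation, moved less as a list. Of 12 measured, the lipase-like PNPLA3 fell by 0.71 (adjusted p = 0.00869, SE 0.09), the desaturase FADS2 by 0.51 (adjusted p = 0.0124, SE 0.07) and the desaturase SCD by 0.50 (adjusted p = 0.00927, SE 0.07), and 9 did not pass. With all arrays, 3.29% of all probe sets passed as lower. The list's median was -0.10, and -0.16 without vehicle replicate 3. Without vehicle replicate 3, 4 of the 12 were lower and 1 higher, where 1220 and 1450 of all probe sets passed so. ACSS2 read 8.18, 8.29 and 7.19 with vehicle and 7.33, 7.39 and 7.34 with ox-LDL. Its log2 difference was -0.53 (adjusted p = 0.263), and -0.88 (adjusted p = 0.00231) without vehicle replicate 3, the largest fall of the list there. GPAM was at 0.60 (adjusted p = 0.0619), and passed as higher at 0.43 (adjusted p = 0.0254) without that array. Without ox-LDL replicate 1 or 3, 0 passed in limma, and without ox-LDL replicate 2, PNPLA3 did. In the fits without ox-LDL replicate 1, 2 or 3, 1.44%, 1.42% and 1.56% of all probe sets passed. At an unadjusted p under 0.05, 5 of the 12 were counted with all arrays, against 26.1% of all probe sets.

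Among 19 partners that carry, cut or degrade SREBPs and INSIGs, 2 genes of the COPII coat fell and 1 of the degradation machinery rose. Of all probe sets, 3.29% passed as lower and 3.48% as higher. SEC24D, a cargo-binding subunit of the coat that takes SCAP out of the endoplasmic reticulum, read 11.41, 11.37 and 11.30 with vehicle and 10.60, 10.51 and 10.49 with ox-LDL. Its fall of 0.82 on the log2 scale (adjusted p = 0.00234, SE 0.07) held in every fit that left out 1 array. SEC23B, the partner subunit, fell by 0.38 (adjusted p = 0.0316, SE 0.07), and the other coat genes SEC23A, SEC24A, SEC24B and SEC24C had differences between -0.01 and 0.13, and between -0.09 and 0.03 without vehicle replicate 3, SEC24A turning from 0.13 to -0.05. ERLIN2, a membrane scaffold for the regulated degradation of sterol enzymes and INSIG1, rose by 0.53 (adjusted p = 0.0230, SE 0.09). Other genes of that machinery did not pass. UBE2G2, a ubiquitin-conjugating enzyme, was at 0.58 (adjusted p = 0.0583), RNF145, a ligase, at 0.54 (0.0918), and ERLIN1 at 0.47 (0.0517). The ligase RNF139 was at 0.21, and VCP, its cofactor UFD1 and FAF2, which act in drawing proteins out of the membrane, lay between -0.04 and -0.0041, and between -0.04 and 0.014 without vehicle replicate 3.

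Vehicle replicate 3 had the lowest UBE2G2, RNF145 and ERLIN1 values of all arrays. Without it, UBE2G2 (0.41, adjusted p = 0.0132) and ERLIN1 (0.36, adjusted p = 0.0214) passed as higher as well. This made 3 higher and 2 lower, where the calls over all probe sets went from 1451 to 2670. SEC23B lost its call without any 1 array other than vehicle replicate 3 (adjusted p up to 0.140), and ERLIN2 with vehicle replicate 2 or whichever ox-LDL array left out (up to 0.115). The list's median was 0.05, and 0.0026 without vehicle replicate 3. Of 8 other substrates of the site-1 protease, 0 passed in the main limma fit and 3 had an unadjusted p under 0.05 (26.1% of all probe sets did). An unmoderated t statistic, array weights, an intensity trend, a second quantile normalization and a cyclic loess scaling each called 1 as lower. In these fits 541 to 1822 of all probe sets passed as lower. Among the brighter probe sets 5 were tested, with 1 higher and 1 lower, where 1571 and 1037 probe sets passed so. CREB3, a membrane-bound transcription factor, came closest at -0.29 (adjusted p = 0.0528, SE 0.07), and passed as lower without vehicle replicate 3 (-0.32, adjusted p = 0.0220).

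Among 24 sterol transfer and lysosomal egress genes other than STARD4 and NPC1, 4 rose and 1 fell. Of all probe sets, 3.48% passed as higher and 3.29% as lower. The list's median was 0.07, and 0.018 without vehicle replicate 3. OSBP, which exchanges cholesterol for a phosphoinositide between endoplasmic reticulum and Golgi, read 9.08, 9.06 and 9.01 with vehicle and 8.53, 8.60 and 8.55 with ox-LDL, a fall of 0.49 on the log2 scale (adjusted p = 0.0104, SE 0.07). Its homologues OSBP2, OSBPL1A, a sterol sensor of late endosomes, and OSBPL11 rose by 0.46 (adjusted p = 0.0307, SE 0.09), 0.42 (adjusted p = 0.0199, SE 0.07) and 0.38 (adjusted p = 0.0363, SE 0.08). CAV1, the cholesterol-binding coat protein of caveolae, rose by 0.55 (adjusted p = 0.00712, SE 0.07). LIPA, the lysosomal acid lipase that frees cholesterol upstream of NPC1, was at -0.17 (adjusted p = 0.269), and SOAT1, which esterifies cholesterol for storage, at 0.00 (adjusted p = 0.990). Passing genes numbered 4, 2 and 6 without vehicle replicate 1, 2 and 3. They numbered 0 without ox-LDL replicate 1 or 2, and 1, CAV1, without ox-LDL replicate 3. The calls over all probe sets went from 1451 to 806, 718 and 2670 without vehicle replicate 1, 2 and 3. Without ox-LDL replicate 1, 2 and 3 they went to 309, 305 and 335.

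MYLIP marks lipoprotein receptors for degradation, and of the 6 measured receptor and turnover genes VLDLR, one of its known targets, fell by 0.52 on the log2 scale (adjusted p = 0.0363, SE 0.11). LRP8, another target, was at -0.07 (adjusted p = 0.591), and at -0.13 without vehicle replicate 3. VLDLR alone of the 6 passed, where 3.29% of all probe sets passed as lower. Its call was lost without any 1 array other than vehicle replicate 3 (adjusted p up to 0.146). Without that array 2 genes of the list fell, where 5.69% of all probe sets passed as lower. MYLIP itself is a target of LXR, the receptor for oxidized sterols. Of 9 measured LXR receptor, partner and target genes, 2 rose, the cholesterol exporter ABCA1 (log2 difference 2.17) and the acyltransferase LPCAT3 (0.69). SCD fell, and 6 did not pass, where 3.48% of all probe sets passed as higher and 3.29% as lower. Of these 6, ABCG1 and ABCG5 lay at or below the negative controls in each group, so a change could hardly be seen. The receptor gene NR1H3 was at -0.29 (adjusted p = 0.246), or -0.14 without vehicle replicate 3, and its partner RXRB at -0.28 (adjusted p = 0.118). Without any 1 ox-LDL array, ABCA1 alone passed. In those fits 1.44%, 1.42% and 1.56% of all probe sets passed (without ox-LDL replicate 1, 2 or 3). Of 6 genes that make or remove oxysterols, 0 passed in limma, at an unadjusted p under 0.05 or with an unmoderated t statistic. The smallest p was that of CYP27A1 (log2 difference -0.26, adjusted p = 0.199), which lay at or below the negative controls in each group.

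**Figure D4:**
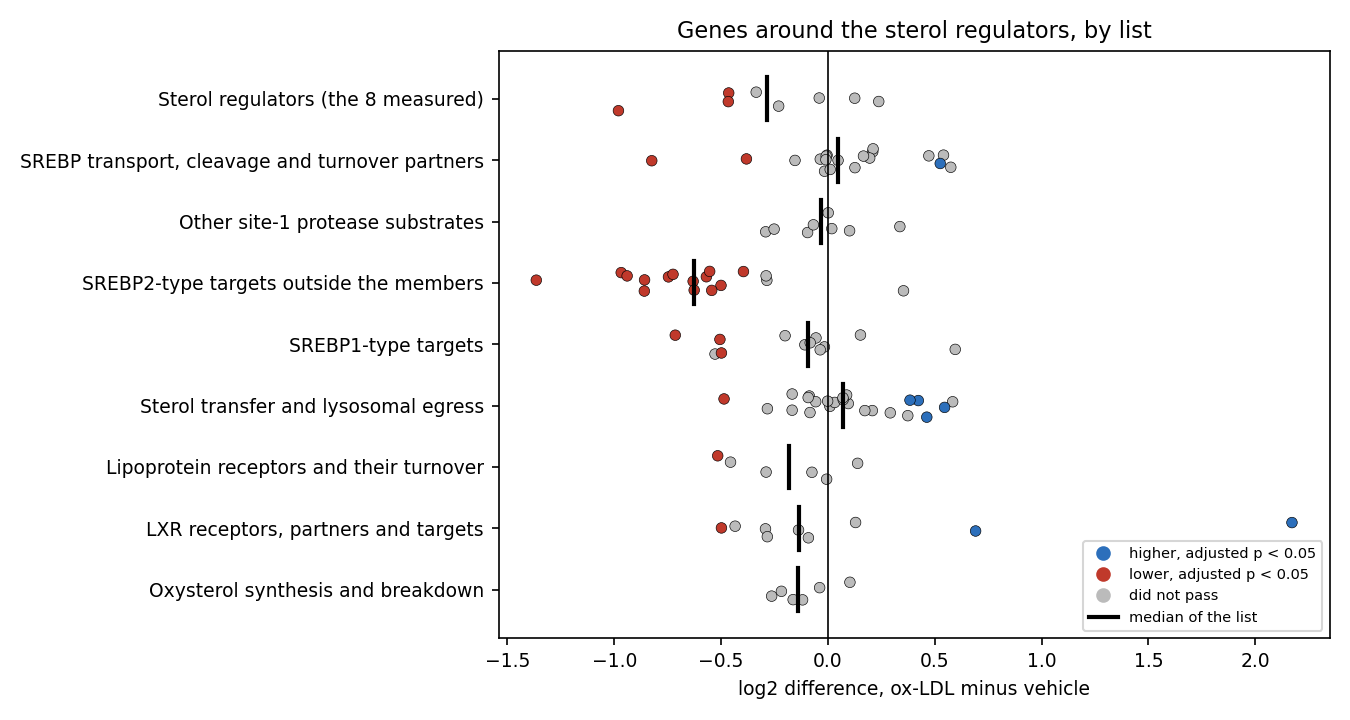
Log2 difference, ox-LDL minus vehicle, of each gene in the 8 surrounding lists and of the 8 sterol regulators, with passing genes in blue (higher) or red (lower) and list medians as bars. The medians of the SREBP2-type targets (-0.63) and of the sterol regulators (-0.28) are the lowest, and ABCA1 (2.17) lies far to the right among the LXR genes.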

How the data were processed

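RNA of 6 T24 samples (3 vehicle, 3 ox-LDL) was read on single-colour Affymetrix arrays from 500 ng of RNA, per the labels' protocols. The authors deposited log2 values made with RMA, per the submitters' processing notes; its version, the genome build and gene models are unknown here, since they are not stated in those sources. RMA makes arrays alike in distribution, so it hides any change of a cell's total RNA, and it understates changes of dim genes. The 2902 control probe sets were left out. Platform annotation gave 1 symbol for 17709 of 21448 probe sets, several for 0 and none for the rest, which are unnamed here. Groups follow the sample titles.

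All 6 arrays entered 1 limma model (lmFit and eBayes, limma 3.58.1, R 4.3.3), with p-values adjusted by Benjamini-Hochberg over 21448 probe sets and called under 0.05. The model was also run on simulated data with independent noise of equal spread on all arrays. No simulated array stood apart, so that run cannot show how the model does on these arrays. A difference is ox-LDL minus vehicle in log2 units, with limma's SE and 95% interval. Homologues were compared by exact permutation over arrays. No depth applies to arrays, and their number limits the precision. A gene with several probe sets took the brightest.

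The genes, the surrounding lists and the tests were chosen with earlier results of these data known, so list counts are descriptions and no list was tested. Named are the 8 genes, EHMT2, from each list the genes that passed or else that with the smallest p, and the 3 nearest profiles of each fallen gene; other names were chosen after their values were seen. Alternatives were 3 array scalings, a filter on dim probe sets, an intensity trend with robust fit, array weights, an unmoderated t statistic, a replicate block, the study's selection and leaving out each array. Figures used matplotlib 3.10.9.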

Additional observations from a re-analysis of the deposited data

How the results depend on the processing

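The count of the 8 genes that passed was 3 in the main analysis and after each array scaling, and 4 with an unmoderated t statistic, which added SCAP. It was 5 with array weights, with an intensity trend or among the brighter probe sets, SREBF2 and SCAP being added, and 1, INSIG1, under the study's selection. Without 1 array it ran from 1 to 3. Over all probe sets 1451 passed, against 2608 among the brighter ones alone, 2649 with an intensity trend, 3962 with array weights, 496 under the study's selection, and 305 to 2670 without 1 array. INSIG1 passed under each alternative. SREBF1 turned to 0.071 with array weights and 0.079 without vehicle replicate 3 (from -0.11 without 1 array), and INSIG2 to -0.15 and -0.17 (up to 0.30 without 1 array); the cause was not tested, and no other of the 8 changed sign. The within-array changes ran from -1.29 to -0.77 for INSIG1 against INSIG2 and from -0.34 to -0.26 for SREBF2 against SREBF1 without 1 array. Of 119 list counts under alternatives, 62 stayed within 1.5 times the main count and 57 did not.

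With the replicate number as a block, 550 probe sets passed and of the 8 genes 1 did, INSIG1 (adjusted p = 0.0190), with STARD4 at 0.0605 and NPC1 at 0.0622. The deviations of same-numbered arrays from their group means had correlations of -0.01, 0.03 and 0.02. The labels do not say that the numbers pair the arrays. With 3 arrays per group, of which the third vehicle array stood apart, these correlations cannot settle it. With same-numbered arrays paired, the exact sign permutation test gave p = 0.25 for each pair of homologues, the smallest that 3 pairs allow.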
